A study of Mus musculus with 60 samples.

Results

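The genes described here are 10 markers of GABAergic interneurons: Gad1 and Gad2, which encode the enzymes that make GABA from glutamate; the homeobox genes Dlx1, Dlx2, Dlx5 and Dlx6; the LIM-homeobox gene Lhx6; and Calb1, Calb2 and Pvalb, which encode the calcium-binding proteins calbindin, calretinin and parvalbumin. They were chosen by name, as a textbook list of the lineage, with earlier results of these data known. All 10 of 10 were found among the 39756 genes of the short-read table and had reads among the 38660 genes of the hippocampus table. The study asked how paxillin, an adaptor protein of cell adhesions, and brain-derived neurotrophic factor (BDNF) bear on gene regulation in developing neurons, using 48 short-read libraries of mouse cortex and 12 long-read libraries of mouse hippocampus. The 48 libraries held 2 of cerebral cortex labelled E15 and day 0 in vitro, and 46 of primary cortical neurons of wild type mice, which the growth protocol describes as prepared from E18 embryos. Every culture received siRNA on day 2 in vitro, either scrambled (SC) or against paxillin (PXN), alone or with 20 ng/ml BDNF, and was collected at day 3, 5 or 10 in vitro (DIV3, DIV5, DIV10), 1, 3 or 8 days after treatment. Numbers of libraries were 3 SC, 5 PXN, 3 SC BDNF and 4 PXN BDNF at DIV3, 4, 6, 4 and 5 at DIV5, and 3, 4, 3 and 2 at DIV10. The hippocampus libraries were 2 per genotype at P10, P15 and P21, labelled WT (control) or paxillin KO with paxillin-S119A-KI (S119A). The S119A mice carried a floxed and a stop-floxed S119A paxillin allele with Nestin-CreERT2, a recombinase driven by the neural promoter Nestin, and controls were littermates with the same paxillin alleles and no Cre that were given tamoxifen in the same way, after the methods of the study. The study's legends speak of independent cultures and of hippocampi, but neither they nor the labels say whether the libraries of a group came from separate preparations or mice, so the p-values measure the spread between libraries, which may be technical.

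GABAergic interneurons of the cortex and hippocampus are born outside them, in the ganglionic eminences and preoptic area of the ventral forebrain, and migrate in. Dlx1 and Dlx2 act early in that lineage, upstream of Dlx5, Dlx6 and the Gad genes, and Lhx6 is maintained in the interneurons of the medial eminence that later make parvalbumin or somatostatin. Calbindin and calretinin appear early in subsets of cells, and calretinin also in Cajal-Retzius and some dentate cells, while calbindin is also made by hippocampal pyramidal and granule cells. Parvalbumin comes on late, when fast-spiking basket cells mature after birth. Bulk RNA of this kind cannot tell fewer cells of a type from less RNA per cell.

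Of the members, 5 lie on chromosome 2 of the GRCm38.p6 assembly. Gad2 covers chr2:22621015-22693877 (+), Lhx6 chr2:36081950-36105992 (-), Gad1 chr2:70561303-70602014 (+), Dlx1 chr2:71528113-71533981 (+) and Dlx2 chr2:71543408-71546754 (-). The 4 Dlx genes stand as 2 pairs of opposite strands, with 9426 bases between Dlx1 and Dlx2, and 9830 bases between Dlx6 at chr6:6863334-6867970 (+) and Dlx5 at chr6:6877801-6882068 (-). Calb1 lies at chr4:15881264-15906709 (+), Calb2 at chr8:110142526-110168212 (-) and Pvalb at chr15:78191112-78206400 (-). Because the Dlx1 and Dlx2 levels and the Gad1 and Gad2 levels moved together across the cultures, as described below, the 250 bases before a RefSeq start of these 4 genes are shown, with the one annotated Lhx6 start whose window holds a homeodomain core motif. The gene spans are those of GENCODE and reach from the outermost transcript start, so the starts used for Gad1, Gad2, Dlx1 and Lhx6 lie inside the spans. Sequences are from RefSeq (GRCm38.p6), 5′ to 3′ on the strand of the gene, and capitals mark a searched motif.
Dlx1, chr2:71529195-71529444 (+): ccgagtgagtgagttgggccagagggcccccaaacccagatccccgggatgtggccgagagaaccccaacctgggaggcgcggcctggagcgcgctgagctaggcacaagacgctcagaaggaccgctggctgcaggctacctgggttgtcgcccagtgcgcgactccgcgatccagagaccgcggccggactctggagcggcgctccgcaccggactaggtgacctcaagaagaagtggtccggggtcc
Dlx2, chr2:71546755-71547004 (-): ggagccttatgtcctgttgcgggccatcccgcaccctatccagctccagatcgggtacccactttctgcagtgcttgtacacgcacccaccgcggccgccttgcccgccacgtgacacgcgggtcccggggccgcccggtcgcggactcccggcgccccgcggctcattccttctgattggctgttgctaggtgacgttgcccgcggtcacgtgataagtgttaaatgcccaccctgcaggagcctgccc
Gad1, chr2:70561879-70562128 (+): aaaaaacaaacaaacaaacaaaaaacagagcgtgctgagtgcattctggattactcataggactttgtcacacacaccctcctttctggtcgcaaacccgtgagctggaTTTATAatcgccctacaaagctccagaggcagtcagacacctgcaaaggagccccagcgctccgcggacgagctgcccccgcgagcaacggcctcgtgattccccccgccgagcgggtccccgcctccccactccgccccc
Gad2, chr2:22622077-22622326 (+): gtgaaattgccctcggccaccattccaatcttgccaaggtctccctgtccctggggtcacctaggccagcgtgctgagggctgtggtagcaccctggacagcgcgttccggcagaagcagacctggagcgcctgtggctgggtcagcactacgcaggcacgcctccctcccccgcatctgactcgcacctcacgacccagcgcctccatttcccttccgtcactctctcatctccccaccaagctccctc
Lhx6, chr2:36104061-36104310 (-): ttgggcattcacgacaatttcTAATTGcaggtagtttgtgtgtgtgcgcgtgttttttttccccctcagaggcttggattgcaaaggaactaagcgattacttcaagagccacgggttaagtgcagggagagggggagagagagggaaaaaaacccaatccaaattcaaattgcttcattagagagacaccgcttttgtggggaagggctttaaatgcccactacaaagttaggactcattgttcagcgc
The motifs searched on both strands, of which no matches overlapped in these windows, were TAATTA and TAATTG, cores bound by homeodomain proteins, TGACGTCA, the cyclic AMP response element, and TATAAA, the TATA box. Of 32851 RefSeq promoter windows of this length, 4.84% held TAATTA, 7.17% TAATTG, 1.55% TGACGTCA and 12.4% TATAAA. Among the 5 windows shown, Gad1 held TATAAA on the opposite strand (printed as TTTATA), its first base 141 bases before the start, and Lhx6 held TAATTG 229 bases before its start. The letters searched for are not in the Dlx1, Dlx2 and Gad2 windows. These 3 were rich in G and C, at 68%, 66.4% and 64%, with 58% for Gad1 and 46% for the Lhx6 window shown, against a median of 52.4% over all windows. RefSeq windows for Dlx5, Dlx6, Calb1 and Calb2 were not used here.

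Levels in the short-read libraries are given in transcripts-per-million (TPM), a value per length that can be set side by side between genes. The Dlx genes led the list. Dlx1 averaged 539 TPM ± 347 (SD, n = 48) over the libraries, a median rank of 282 among all genes of a library, Dlx2 averaged 283 ± 205 and Dlx5 68.5 ± 47.3. Next came Gad1 at 41.4 ± 28.1, Lhx6 at 24.5 ± 16.7 and Gad2 at 15.1 ± 11.6 TPM. Calb2 averaged 8.44 ± 9.57, Dlx6 7.02 ± 5.23, Calb1 5.09 ± 3.90 and Pvalb 0.283 ± 0.500 TPM. Dlx1 was above Dlx2, and Dlx2 above Dlx5, in 48 of 48 libraries, and Gad2 was above Calb2 in 43 and Calb1 above Pvalb in 46. The other neighbours in this order changed places between libraries. Dlx5 was above Gad1 in 40 of 48, Gad1 above Lhx6 in 35, Lhx6 above Gad2 in 34, Dlx6 above Calb1 in 30 and Calb2 above Dlx6 in 24. Parvalbumin RNA, as the late marker, was listed above 0 in 41 of 48 libraries and reached at most 2.07 TPM, in the DIV10 SC library of culture 3. It was under the mean of 1 TPM that a gene needed to enter the tests, so 9 of 10 members were tested among 14250 genes. Dlx1 shares 6.21% of its 5396 exon bases with the antisense gene Dlx1as, and the strand setting of the counting is not given in the sources used here, so reads over the shared bases cannot be assigned to either.

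**Figure D1:**
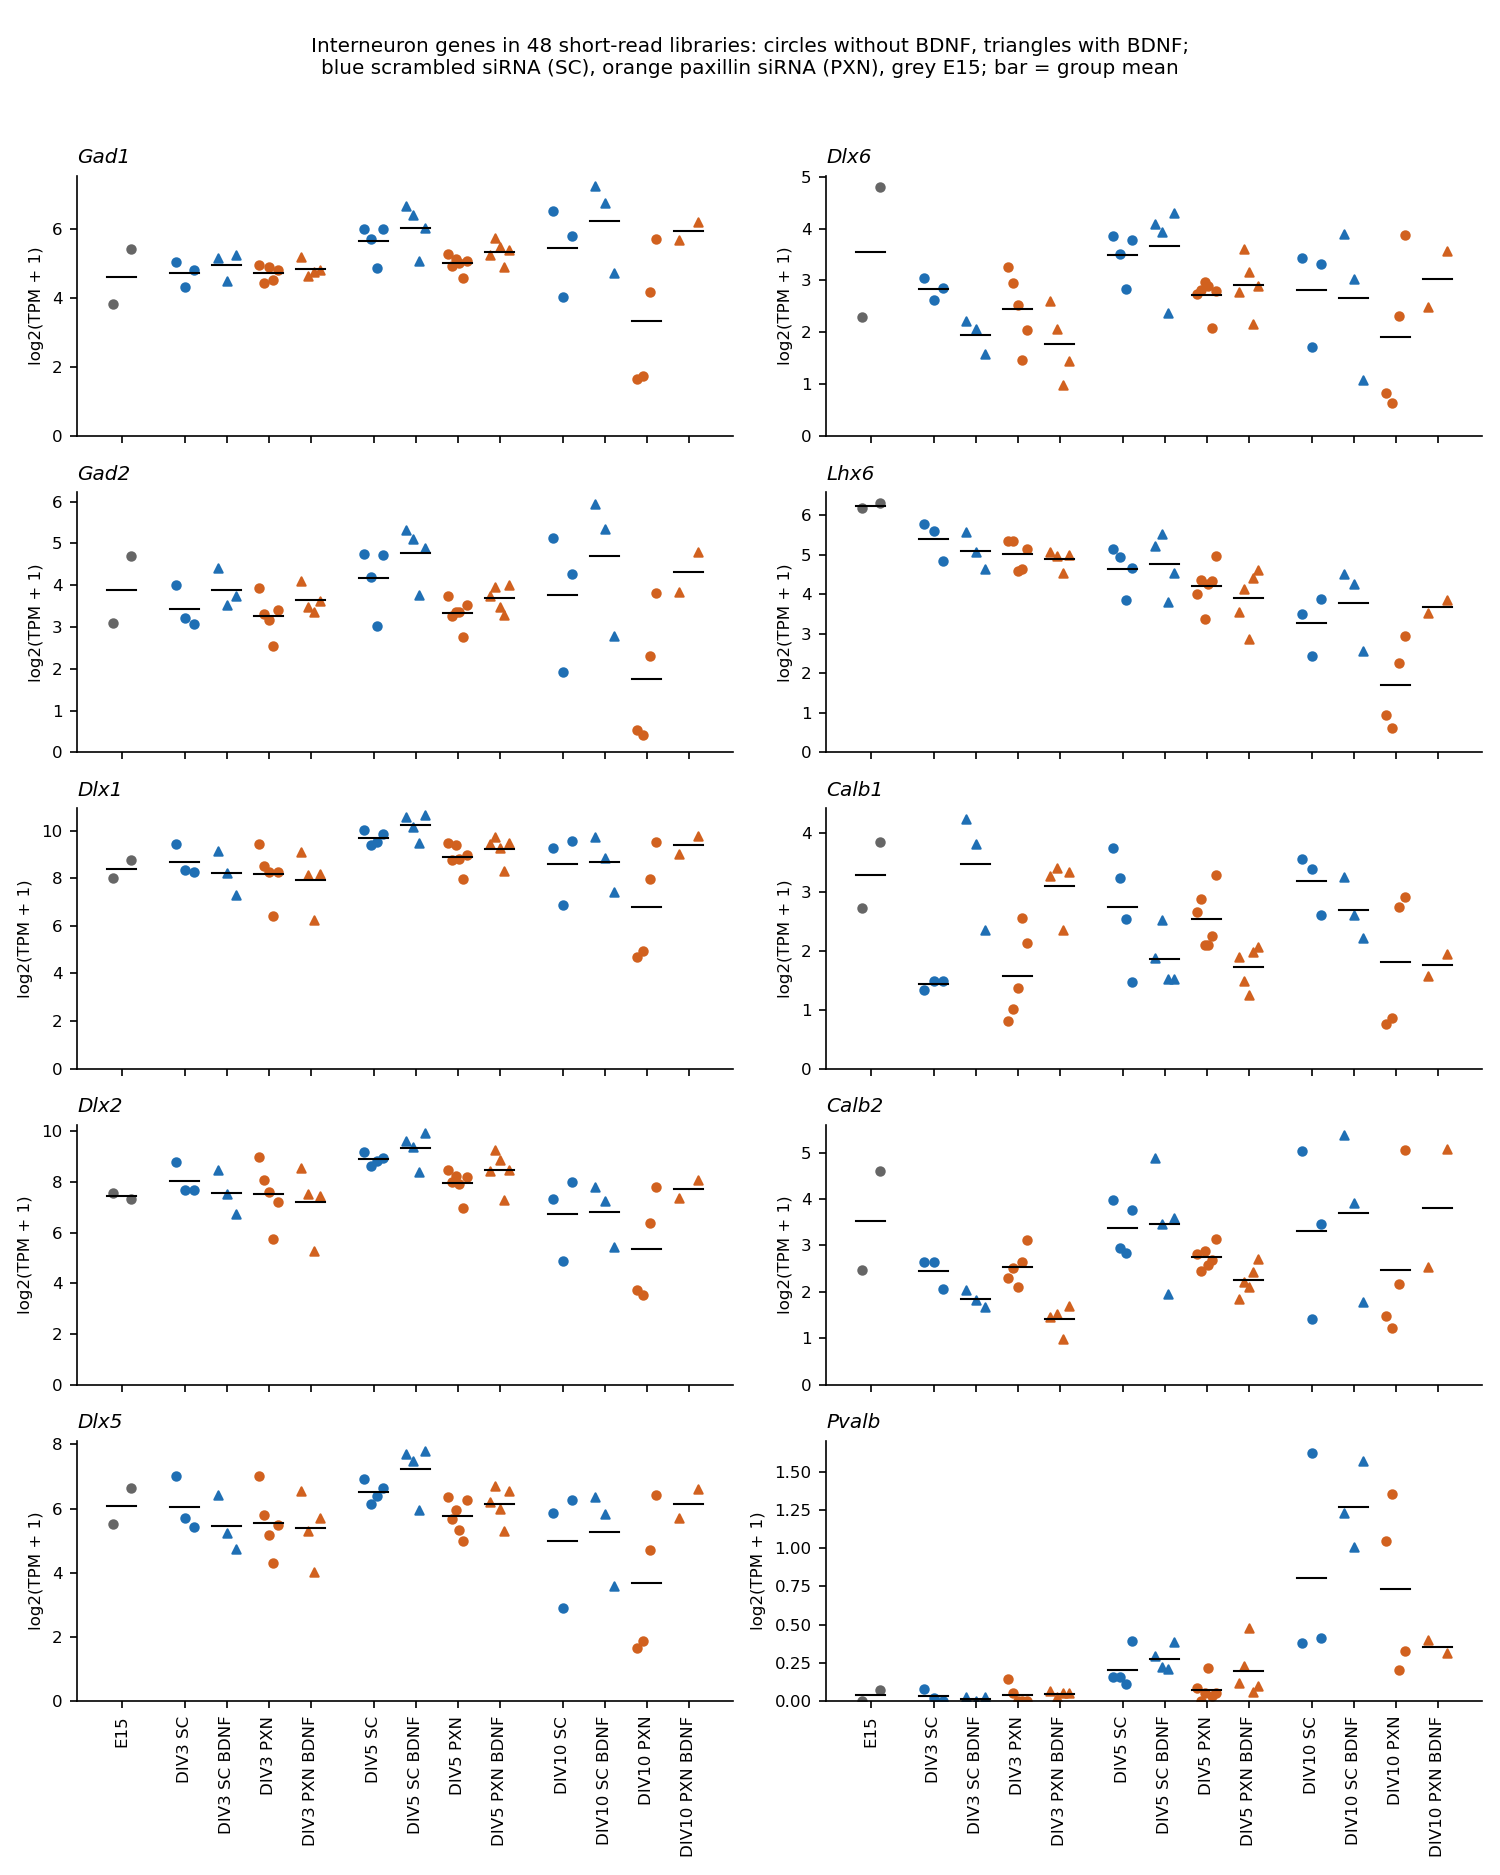
Level of each of the 10 genes as log2(TPM + 1) in the 48 short-read libraries by group, with a bar at each group mean; circles are libraries without BDNF and triangles with BDNF. Lhx6 steps down from E15 (71.6 and 77.8 TPM) to DIV10, Pvalb stays near 0 before DIV10, and a few DIV10 libraries lie far under the others for the Gad and Dlx genes.

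Before the comparisons, 4 of the 12 DIV10 libraries stood apart from the rest: those of DIV10 PXN cultures 1 and 2, and of culture 3 in DIV10 SC and DIV10 SC BDNF (the culture number is the number that the labels give within a group). In these 4 the summed Dlx level was 39.9 to 225 TPM, against 358 to 1243 in the other 8. The summed pan-neuronal markers (11 genes) were 640 to 2071 against 2210 to 3774 TPM, the astrocyte markers (9 genes) 1121 to 2021 against 4496 to 9100, and the oligodendrocyte lineage markers (8 genes) 223 to 1354 against 3811 to 8679. Cdkn1a, a cell cycle inhibitor induced by p53, was 503 to 969 TPM in the 4 and 23.4 to 49.8 in the 8, and the stress gene Gdf15 75.3 to 293 against 1.02 to 3.41 (both picked after their values were seen). What part these libraries' state had in the results was not tested. Values without them are given beside most, not all, of the DIV10 results. The test of whether the change from DIV3 to DIV10 differed between siRNAs, and the likeness of members, are given with them only. The labels give each library a number but name no series, so the series of library numbers used here were assigned. Some libraries of culture 11 carry the same numbers as SC libraries, but were placed with culture 10 in another series. At DIV10 the series of library numbers from 65 to 84 holds culture 1 of SC and cultures 1 and 2 of PXN. PXN cultures 10 and 11 have no SC library in their assigned series, so that series and siRNA are in part confounded at DIV10.

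Lhx6 fell during culture. It measured 71.6 and 77.8 TPM at E15, 53.8, 47.4 and 27.6 at DIV3 SC, 34.1, 29.8, 13.4 and 24.3 at DIV5 SC and 10.3, 4.40 and 13.7 at DIV10 SC. The DIV3 and DIV10 libraries did not overlap, and the highest DIV10 value was about that of the lowest DIV5 library. On the log2(TPM + 1) scale, which understates the change of low genes, Lhx6 fell from DIV3 to DIV10 by 2.13 ± 0.51 (SE) with scrambled siRNA and by 3.32 ± 0.42 with paxillin siRNA (limma with Benjamini-Hochberg adjustment over all genes tested, adjusted p = 0.00128 and 3.24e-08). Both calls held in all alternatives run, 13 of 13 (-2.44 to -1.71) and 18 of 18 (-4.31 to -2.41). In the paxillin siRNA arm Lhx6 was 40.0, 39.5, 23.2, 23.8 and 34.1 TPM at DIV3 and 0.929, 0.538, 3.79 and 6.73 at DIV10. All DIV10 PXN values lay under all DIV3 PXN values, also in cultures 10 and 11, which did not stand apart. With BDNF the fall was 1.31 ± 0.51 in SC cultures (adjusted p = 0.0373; without the DIV10 library of culture 3, -0.71, adjusted p = 0.29; the call was also lost without culture 1 or 2 of DIV3, at -1.07 and -1.32). In PXN BDNF cultures Lhx6 differed by -1.21 ± 0.54, which did not pass (adjusted p = 0.0834), though it did with a term for the series of library numbers (-1.39, adjusted p = 0.011) and in a fit of only both groups (-1.21, adjusted p = 0.0019). Markers of other cell types moved over the same days. From DIV3 to DIV10 SC the summed pan-neuronal markers went from 4585 to 5823 TPM down to 1642 to 2619 and the 12 excitatory neuron markers from 2486 to 3833 down to 1438 to 2558. Astrocyte markers went from 326 to 954 TPM up to 1687 to 8659, and the 6 microglial markers from 25.9 to 40.1 up to 129 to 717. What part these had in the changes of the members with days in culture was not tested.

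Calb1 moved the other way. Its level was 5.60 and 13.3 TPM at E15, 1.52, 1.80 and 1.81 at DIV3 SC, 12.4, 8.41, 4.83 and 1.77 at DIV5 SC and 10.7, 9.49 and 5.10 at DIV10 SC. The 3 DIV3 SC libraries were tightly grouped and all under the E15 and DIV10 SC libraries, while DIV5 SC spread over a wide range. From DIV3 to DIV10 SC it rose by 1.75 ± 0.53 (limma, adjusted p = 0.00971; 12 of 13 alternatives, the exception being without DIV10 SC culture 1, 1.56, adjusted p = 0.050; without the DIV10 libraries that stood apart, 1.64, adjusted p = 0.0131). From E15 to DIV3 SC it fell by 1.85 ± 0.59 (adjusted p = 0.0461), a call that was lost in 6 of 10 alternatives, among them leaving out E15 library 2 (-1.29, adjusted p = 0.53) or any 1 of the DIV3 SC libraries (-1.87 to -1.79). The rise from DIV3 to DIV5 SC was 1.31 ± 0.50 and did not pass (adjusted p = 0.0872), though it did without culture 4 of DIV5 SC (1.74, adjusted p = 0.037). All 4 DIV5 SC libraries have numbers from 1 to 15, as only 1 of the 3 DIV3 SC libraries has, and with a term for the series of library numbers the rise passed (1.64, adjusted p = 0.012). In the other arms Calb1 did not pass between DIV3 and DIV10, with differences of 0.24 in PXN, -0.77 in SC BDNF and -1.33 in PXN BDNF. Without the libraries that stood apart the difference was 1.25 in PXN, which passed (adjusted p = 0.0346), and -0.54 in SC BDNF. In PXN BDNF, opposite in sign to SC, it passed as a fall with the series term (-1.65, adjusted p = 0.0074), in a fit of only both groups (-1.33, adjusted p = 0.013) and without culture 10 of DIV3 (-1.58, adjusted p = 0.041).

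The Gad and Dlx genes spread more widely than they moved in scrambled siRNA cultures. Gad1 was 32.3, 19.0 and 27.1 TPM at DIV3 SC, 62.6, 51.3, 28.2 and 63.3 at DIV5 SC, and 90.1, 15.4 and 54.8 at DIV10 SC, where the low value was that of culture 3. Gad2 followed it, at 14.99, 8.23 and 7.36 TPM, then 25.9, 17.3, 7.17 and 25.4, then 33.96, 2.81 and 18.3. Dlx2 was 446, 203 and 205 TPM at DIV3 SC, 581, 394, 456 and 492.7 at DIV5 SC and 160, 28.5 and 254 at DIV10 SC. All DIV10 values of Dlx2 lay under all DIV5 values. Its fall from DIV5 to DIV10 SC was 2.16 ± 0.78 (limma, adjusted p = 0.0390), but it was lost without culture 3 of DIV10 SC (-1.24, adjusted p = 0.29), and without any 1 of 6 of the 7 libraries compared. Lhx6 fell over the same interval by 1.37 ± 0.48 (adjusted p = 0.0312; -0.95, adjusted p = 0.19, without the same library, and lost without 5 of the 7 in turn). With paxillin siRNA, Gad1 fell from DIV3 to DIV10 by 1.40 ± 0.53, Gad2 by 1.51 ± 0.57, Dlx2 by 2.17 ± 0.69 and Dlx5 by 1.88 ± 0.71 (adjusted p = 0.0253, 0.0238, 0.00782 and 0.0245). These calls rested on DIV10 PXN cultures 1 and 2. Without them the differences were 0.23, -0.21, -0.44 and 0.01, and none passed, while leaving out only 1 of them ended all 4 calls, with values from -1.62 to -0.84. Gad2 and Dlx5 were also lost without DIV3 PXN culture 1 (-1.34 and -1.52). Calb2, the marker of calretinin cells, rose by 2.38 ± 0.83 in PXN BDNF cultures (1.76, 1.88, 0.984 and 2.25 TPM at DIV3, 4.76 and 32.7 at DIV10; adjusted p = 0.0254). That rise was lost without culture 11 of DIV10 (1.11, adjusted p = 0.51) and without culture 10 of DIV3 (2.24, adjusted p = 0.055).

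Counted over the 9 tested members, with the share of all 14250 genes called beside it, 1 member was called from E15 to DIV3 SC (8.11% of all genes), 0 from DIV3 to DIV5 SC (9.47%; 1 member and 3350 genes at an unadjusted p under 0.05), 2 from DIV5 to DIV10 SC (24.9%) and 2 from DIV3 to DIV10 SC (35.2%). From DIV3 to DIV10, 5 were called with paxillin siRNA (54.3% of all genes), 1 with SC BDNF (40.3%) and 1 with PXN BDNF (32.7%). In the SC BDNF arm, where libraries of the same culture number deviated together, the fit blocked on culture called Calb2 as well (1.84, adjusted p = 0.013; 1.84 and 0.058 without the block; 51.3% of all genes), and so did the fit without culture 3 of DIV10 (2.79, adjusted p = 0.0058; 42.4% of all genes). None of these counts was above the share of all genes called by as much as 1 member. Without the 4 DIV10 libraries that stood apart, DIV3 to DIV10 SC had 5 calls, with Gad1 at 1.43, Gad2 at 1.28 and Calb2 at 1.80 past the threshold and higher at DIV10, where 42.1% of all genes were called. With only DIV10 PXN cultures 1 and 2 left out, 2 were called in the paxillin siRNA arm, Lhx6 and Calb1 (40.7% of all genes).

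**Figure D2:**
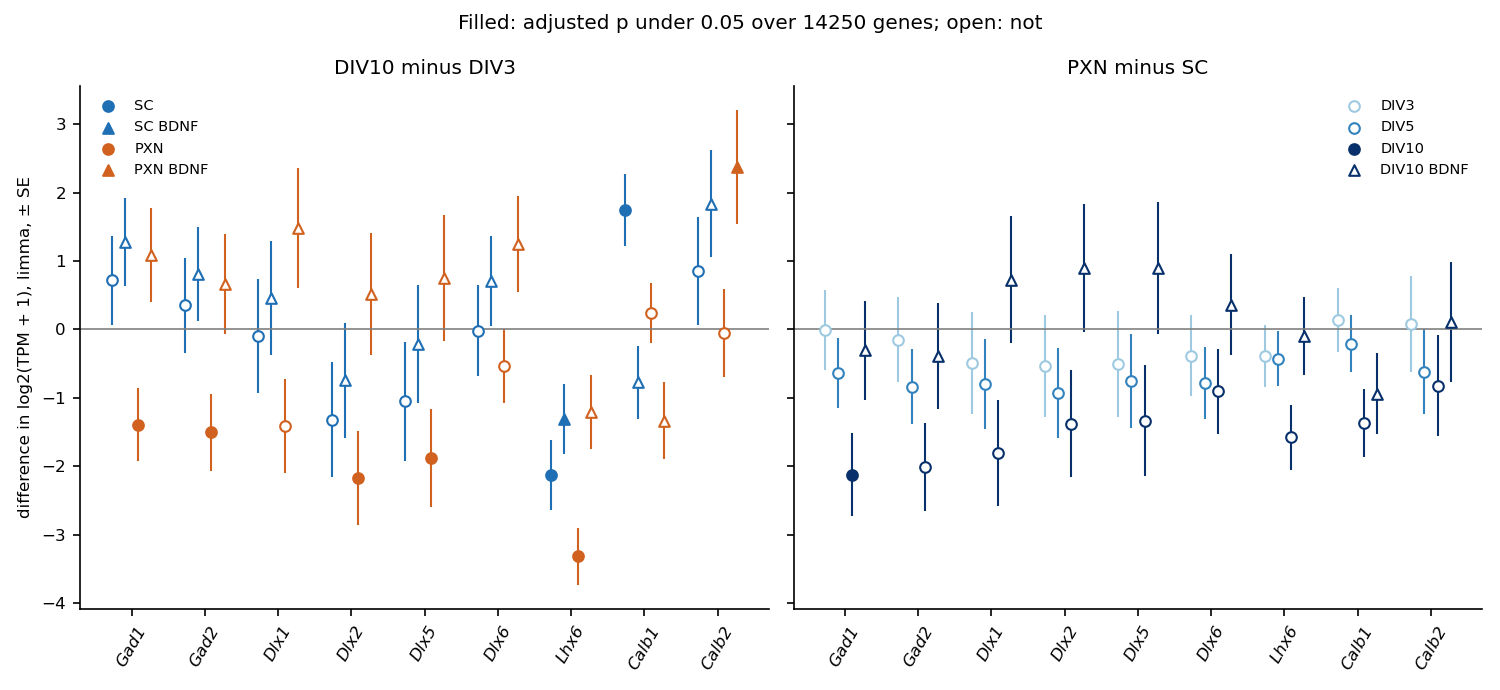
Differences in mean log2(TPM + 1) with their standard errors for the 9 tested genes, from DIV3 to DIV10 in each of 4 treatment arms (left) and between paxillin and scrambled siRNA (right); filled points passed an adjusted p of 0.05 over 14250 genes in limma. Lhx6 lies under 0 in every arm on the left, and at DIV10 without BDNF all 9 points on the right lie under 0, Gad1 alone filled.

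Within libraries, where differences in the overall share of interneuron RNA cancel, members changed relative to each other with days in culture. The ratio of Dlx1 to Dlx2 in TPM had a median of 1.58 over the 15 DIV3 libraries (1.37 to 2.06; 1.35 and 2.71 at E15), 1.81 over the 19 DIV5 libraries (1.33 to 2.22) and 3.18 over the 12 DIV10 libraries (2.03 to 4.09). The lowest DIV10 ratio was in a PXN library that stood apart, and the DIV10 range met those of DIV3 and DIV5 only between 2.03 and 2.22. Over the 8 DIV10 libraries that did not stand apart it ran from 2.99 to 3.86, above all DIV3 and DIV5 libraries and the E15 pair. The ratio of Lhx6 to Gad1 went from 5.47 and 1.85 at E15 to a median of 1.25 at DIV3, 0.473 at DIV5 and 0.203 at DIV10. All 12 DIV10 ratios (0.115 to 0.429) lay under all 15 DIV3 ratios (0.647 to 2.499), with a median of 0.177 over the 8 libraries that did not stand apart. Dlx1 to Gad1 showed no such order, with medians of 11.6, 15.1 and 10.9. These ratios are a description without a test.

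**Figure D3:**
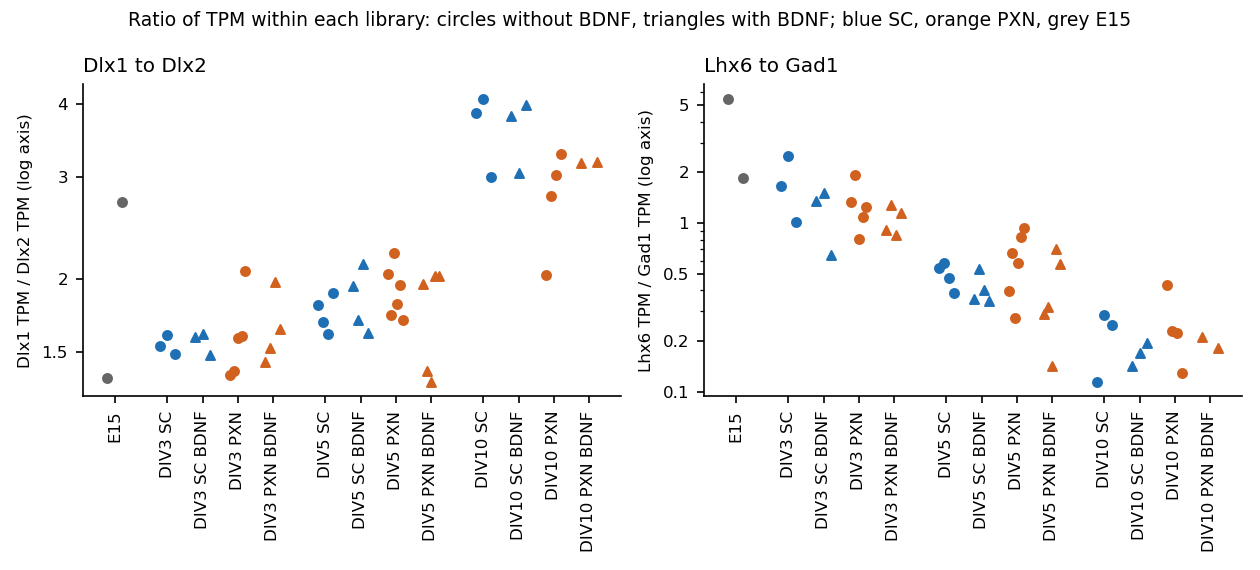
Ratio of Dlx1 to Dlx2 (left) and of Lhx6 to Gad1 (right) in TPM within each of the 48 libraries, by group, on log axes. The DIV10 ratios of Dlx1 to Dlx2 run from 2.03 to 4.09 and those of Lhx6 to Gad1 from 0.115 to 0.429, at the high and the low end of the cultures.

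Paxillin siRNA was first checked on its target. Pxn RNA differed by -0.16 ± 0.20 at DIV3, fell by 0.67 ± 0.18 at DIV5 (limma, adjusted p = 0.0186) and differed by 0.19 ± 0.21 at DIV10. A lower target RNA was thus seen at DIV5 only among the 3 days without BDNF, and it passed in 12 of 18 alternatives. With BDNF the Pxn differences were 0.17, -0.42 and -0.06, and none passed. At DIV10, over all groups, Pxn was 13.4 to 19.9 TPM in the 4 libraries that stood apart and 8.99 to 13.2 in the other 8. Their part in the DIV10 difference was not tested. At DIV5 the 9 interneuron genes were all lower with paxillin siRNA, by 0.21 (Calb1) to 0.93 (Dlx2), and none passed (0 of 9 called and 0 at an unadjusted p under 0.05, against 6.18% of all genes called; limma). Every DIV5 SC library is in the same assigned series of library numbers, which holds only some of the DIV5 PXN libraries. Series and siRNA are therefore in part confounded at DIV5 too. With a term for the series 1 member was called. The 6.18% is of the main fit and the share with the term is not given here, so this count is not read as a result about the members. Gad2 was 25.9, 17.3, 7.17 and 25.4 TPM in SC and 12.4, 8.59, 9.20, 9.29, 5.75 and 10.6 in PXN. Its groups overlapped only through SC culture 3. With BDNF at DIV5 the 9 were again lower, by 0.13 to 1.22, with 0 called and 1 at an unadjusted p under 0.05 (0.596% of all genes called). There Lhx6 was 36.1, 44.9, 13.02 and 22.3 TPM in SC BDNF and 10.7, 16.7, 6.28, 20.1 and 23.4 in PXN BDNF (-0.86 ± 0.42, adjusted p = 0.262). Within library numbers 65 to 84, cultures 1 and 2 of both groups, 4 members passed (Gad1, Gad2, Lhx6 and Calb2; 18.1% of all genes), with Lhx6 at -1.52 (adjusted p = 0.002), and with a term for the series of library numbers Lhx6 alone did (-1.25, adjusted p = 0.018; 12.8% of all genes). Astrocyte markers moved with these groups. Their sum was 1407 to 8688 TPM in DIV5 SC and 1149 to 2060 in DIV5 PXN, 1514 to 6869 in DIV5 SC BDNF and 1393 to 2146 in DIV5 PXN BDNF, and their part in the member differences was not tested. At DIV3 the members differed by -0.53 to 0.14 without BDNF and by -0.43 to -0.07 with it, with 0 called in either (0% of all genes called in both; 21 and 229 genes and 0 members at an unadjusted p under 0.05).

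At DIV10 without BDNF, Gad1 was lower with paxillin siRNA. It was 90.1, 15.4 and 54.8 TPM in SC and 2.17, 2.35, 17.1 and 51.7 in PXN, where the low pair was cultures 1 and 2, and the groups overlapped. The difference was -2.12 ± 0.61 (limma, adjusted p = 0.0482), the 1 call among 9 members, against 2.58% of all genes called. Gad2 (-2.01 ± 0.65, adjusted p = 0.0667), Lhx6 (-1.58 ± 0.48, 0.0557), Calb1 (-1.37 ± 0.50, 0.0914) and Dlx1 (-1.80 ± 0.78, 0.146) were lower without passing, and so were Dlx2, Dlx5, Dlx6 and Calb2. Without DIV10 PXN cultures 1 and 2 the Gad1 difference was -0.50 (adjusted p = 0.84), Dlx1 differed by 0.16 and 0 members were called (0.414% of all genes). Without all 4 libraries that stood apart the Gad1 difference was -1.21 (adjusted p = 0.222), with 0 members called (0.365% of all genes). Leaving out 1 library at a time, the Gad1 call was lost without PXN culture 1 (-1.57) or 2 (-1.60) and SC culture 1 (-1.59) or 6 (-1.95), while 5 members were called without SC culture 3 (18.7% of all genes), 4 without PXN culture 10 (14.6%) and 7 without PXN culture 11 (16.2%). The series of library numbers 65 to 84 holds 1 SC library and PXN cultures 1 and 2, the pair that stood apart, and there Gad1 differed by -4.80. The spread of that fit comes in part from other groups, and with 1 SC library only the size is given. With a term for the series of library numbers, 4 were called (33.5% of all genes). With BDNF at DIV10 the members differed by -0.94 to 0.90, and 0 were called (0.0211% of all genes; 0 members and 1023 genes at an unadjusted p under 0.05). Without culture 3 of SC BDNF, in the fit without all 4 libraries that stood apart, they differed by -1.34 to 0.20, with 0 called (3.53% of all genes). The test of whether the change from DIV3 to DIV10 differed between siRNAs called 0 members (0.00702% of all genes), with Gad1 at -2.11 ± 0.84 (adjusted p = 0.53). The test of whether the siRNA difference at DIV5 depended on BDNF called 0 (0% of all genes; 116 genes and 0 members at an unadjusted p under 0.05).

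The response to BDNF, a growth factor that signals through the receptor TrkB, was seen in Calb1. After 1 day, at DIV3, Calb1 was 17.9, 13.02 and 4.12 TPM in SC BDNF against 1.52, 1.80 and 1.81 in SC. All 3 libraries were above all controls, and each above the control of its own culture number. The rise was 2.03 ± 0.53 (limma, adjusted p = 0.0420), the 1 call among 9 members, against 1.21% of all genes called. It was lost without any 1 of 5 of the 6 libraries (1.65 to 2.06, the exception being SC BDNF culture 3). Within library numbers 65 to 84, with 2 libraries a group, the difference was 2.62 (adjusted p = 0.000167; 6.33% of all genes called). Within library numbers 1 to 15, with 1 library a group, it was 0.87. The spread of that fit comes from other groups, so only the size is given. In paxillin siRNA cultures Calb1 was 8.59, 9.57, 4.11 and 9.14 TPM with BDNF and 0.752, 1.01, 1.59, 4.86 and 3.37 without. It was higher in 3 of the 4 cultures that had both libraries and lower in culture 10. That difference was 1.52 ± 0.44 and did not pass (adjusted p = 0.0555; 0 of 9 called against 2.14% of all genes; 1 member at an unadjusted p under 0.05). Here libraries of the same culture number deviated together, and blocked on culture it passed (1.36, adjusted p = 0.020), as it did without DIV3 PXN culture 10 (1.76, adjusted p = 0.026) and within library numbers 65 to 84 (2.42, adjusted p = 0.00043).

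By DIV5, after 3 days of BDNF, Calb1 was no longer higher. It was 2.66, 4.71, 1.86 and 1.86 TPM in SC BDNF against 12.4, 8.41, 4.83 and 1.77 in SC, and 2.71, 1.78, 1.36, 2.92 and 3.18 in PXN BDNF against 5.30, 6.34, 3.25, 3.26, 3.72 and 8.73 in PXN. In PXN all 5 values with BDNF were under all 6 without, although neither difference passed (-0.89 ± 0.46, adjusted p = 0.593, and -0.81 ± 0.39, 0.723). With 0 members called, 0.0491% and 0.014% of all genes were called in SC and PXN at DIV5, and 0 and 1 members had an unadjusted p under 0.05. The change of the BDNF difference from DIV3 to DIV5 was -2.93 ± 0.70 in SC and -2.33 ± 0.59 in PXN, a test added after seeing the data. Neither passed (adjusted p = 0.0694 and 0.136; 0 members called, against 0.0982% and 0.133% of all genes), and both did with the culture number, by which libraries of a day deviated together, as a block (-2.93, adjusted p = 0.00783, and -2.26, adjusted p = 0.0202). Calb2 did not share this pattern. At DIV3 it was 3.12, 2.57 and 2.18 TPM in SC BDNF against 5.28, 5.24 and 3.15 in SC, and 1.76, 1.88, 0.984 and 2.25 in PXN BDNF against 3.92, 4.68, 3.27, 5.28 and 7.68 in PXN. The groups did not overlap in either arm, and the differences of -0.60 ± 0.78 and -1.11 ± 0.64 did not pass (adjusted p = 0.917 and 0.507).

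**Figure D4:**
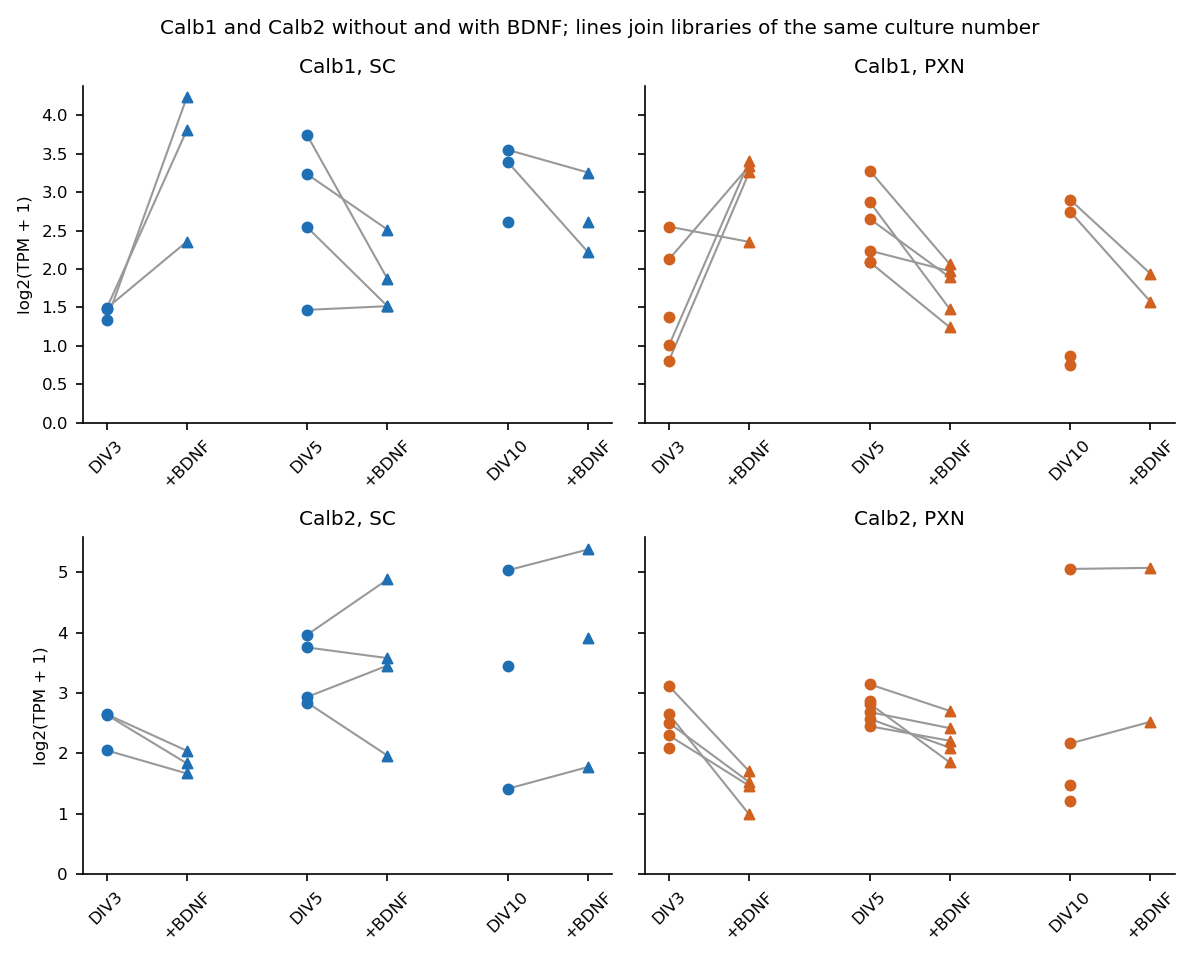
Calb1 (top) and Calb2 (bottom) as log2(TPM + 1) in libraries without (circles) and with BDNF (triangles, labelled +BDNF) at each day, for scrambled (left) and paxillin siRNA (right), with lines joining libraries of the same culture number. Calb1 rises with BDNF at DIV3 in all 3 SC cultures and in 3 of 4 joined PXN cultures, and the lines slope down at DIV5 except for 1 SC culture.

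At DIV10 BDNF gave 0 calls among the members in SC (0% of all genes; 0 members and 352 genes at an unadjusted p under 0.05) and 0 in PXN (0.014% of all genes). Without the libraries that stood apart the SC differences ran from -0.15 to 0.95, with 0 called (0.0211% of all genes). In PXN, 6 of the 9 had an unadjusted p under 0.05, all higher with BDNF. Gad1 was 49.9 and 73.2 TPM with BDNF and 2.17, 2.35, 17.1 and 51.7 without (2.62 ± 0.69, adjusted p = 0.218). The low pair were again cultures 1 and 2, and both BDNF libraries were of cultures 10 and 11, so that BDNF and the library series cannot be told apart in part of this contrast. Compared within cultures 10 and 11, Gad1 went from 17.1 to 49.9 and from 51.7 to 73.2 TPM. Without cultures 1 and 2 the difference was 1.00, and 4 and 6 members were called when culture 10 or 11 of DIV10 PXN was left out, with Gad1 at 2.90 and 3.41 (6.99% and 8.13% of all genes).

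Other genes of the lineage were read from 3 lists, of GABA transport and breakdown (5 genes, 4 tested), other interneuron transcription factors (13 genes, 12 tested) and interneuron subclass and migration genes (20 genes, all tested). From DIV3 to DIV10 SC, 2 of 4 transport genes rose: Abat, the GABA transaminase (1.72 ± 0.28), and Aldh5a1, which completes GABA breakdown (0.52 ± 0.18). The median difference of the 4 was 0.86, against -0.04 over all genes. Of the transcription factor list, which also holds antisense RNAs, 2 of 12 genes fell and 0 rose, Gsx2 by 1.33 and Nr2f2 by 1.05. Of the subclass genes 3 of 20 rose and 1 fell. Over all genes 35.2% were called in this comparison. Cck, a neuropeptide (2.90 ± 0.72), Lamp5 (2.45 ± 0.97) and Syt2, a synaptotagmin of fast-spiking terminals (2.15 ± 0.60), rose, and Nos1, the neuronal nitric oxide synthase, fell by 1.46 ± 0.27. Of these 8 genes, Abat, Nr2f2, Cck and Nos1 passed in all 13 alternatives, and the others in 7 to 11. All 8 passed without the DIV10 libraries that stood apart, with Lamp5 at 3.29, Syt2 at 3.06 and Nos1 at -1.62. In the paxillin siRNA arm 6 of 12 genes of the transcription factor list fell, the antisense RNAs Dlx1as (-3.01) and Dlx6os1 (-1.72) by the most, against 54.3% of all genes called, so the list's share was near that of all genes. The peptide gene Sst fell there by 3.45 ± 1.09. Without DIV10 PXN cultures 1 and 2 none of these 3 passed, with Dlx1as at -1.17, Dlx6os1 at -0.07 and Sst at -0.86. BDNF at DIV3 raised 2 of 20 subclass genes in SC, against 1.21% of all genes called. They were Crhbp, which encodes a binding protein of corticotropin-releasing hormone (4.12 ± 0.74), and Tac1, the substance P precursor (3.81 ± 0.80). In PXN it raised 4, Tac1 (4.02), Crhbp (3.93), Npy (3.16) and Crh (3.00, past the threshold in 6 of 17 alternatives), against 2.14% of all genes called. At DIV5 Crhbp was still higher in SC (3.14 ± 0.64, past the threshold in 5 of 15 alternatives), at 1 of 20 against 0.0491% of all genes called. With paxillin siRNA, Abat (-0.74, past the threshold in 5 of 18 alternatives) and Sox6 (-1.04, in 13 of 18) were lower at DIV5. They were 1 of 4 and 1 of 12 in their lists against 6.18% of all genes called, too few to read as a result about the lists. At DIV10 Syt2 (-2.06, in 10 of 17) and Kcnc1 (-1.15, in 11 of 17) were lower, 2 of 20 against 2.58% of all genes called. Without DIV10 PXN cultures 1 and 2, Syt2 (-1.70) and Kcnc1 (-0.79) did not pass. Every gene said here to rise, to fall, to be raised or to be lower passed an adjusted p of 0.05 over all genes in the main limma fit.

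Members resembled each other unequally. As a description, over deviations from group means in the 46 culture libraries, which share preparation and treatment by culture, Dlx1 was most like Dlx2 (r = 0.982) and Gad1 most like Gad2 (0.942) of all 14250 genes. The 46 include the DIV10 libraries that stood apart, where the Gad and Dlx levels were low, and r without them is not given. Sp9, a zinc finger factor of the eminences, was among the 3 nearest genes of all 4 Dlx genes (0.909 to 0.982). Gad2 was next nearest to Synpr (0.941) and Vip (0.931). Lhx6 was nearest to Gm52287 (0.899) and Elfn1 (0.893), with no member among its 3 nearest. Calb1 had only weaker neighbours, Pex5l (0.774), Calm3 (0.718) and Tango2 (0.713), and its r with the other members was 0.297 to 0.539. Calb2 was nearest to Sp7 (0.951), Iigp1 (0.933) and Pbx3 (0.925).

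In the hippocampus the GABA synthesis genes and parvalbumin rose from P10 to P21. Levels are given as reads-per-million values (rpm), and intervals cover counting error only; reads are not corrected for length. Gad1 was 97.1, 93.1, 78 and 100.5 rpm at P10 (both controls, then both S119A libraries), 137, 92.0, 132 and 95.2 at P15, and 214, 164, 194 and 205 at P21. All P21 values were above all earlier ones. Its rise from P10 to P21 was 1.08 ± 0.15 on the log2 scale (edgeR's quasi-likelihood test, adjusted p = 0.00119). Gad2 was 68.3, 72.96, 66.8 and 66.8 rpm at P10, 101, 133, 104 and 177 at P15 and 123, 156, 141 and 184 at P21. It rose by 0.97 ± 0.21 from P10 to P15 (adjusted p = 0.0266; lost without P10 control library 1, either P10 S119A library or either P15 library numbered 2, at 0.75 to 0.95) and by 1.14 ± 0.21 to P21 (adjusted p = 0.00533).

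Pvalb had the steepest rise. It had 4, 14, 1 and 6 reads at P10, 43, 88, 31 and 31 at P15 and 65, 101, 64 and 91 at P21, in libraries of 3162777 to 5687908 reads. In rpm this was 0.198 to 2.57 at P10, 5.86 to 17.9 at P15 and 12.97 to 28.5 at P21, so the P10 libraries lay under all later ones, although counts this low at P10 give wide intervals (0.0349 to 1.12 rpm for the library with 1 read). On the log2 scale the rises were 3.21 ± 0.55 to P15 and 4.12 ± 0.56 to P21 (edgeR, adjusted p = 0.0101 and 0.00104), and both passed in all 13 alternatives. In all 3 ages and both genotypes the library numbered 2 was the higher for Pvalb, by 1.24 to 5.63 times. From P10 to P15, 2 of 9 tested members were called (5.8% of 13614 genes) and from P10 to P21, 3 of 9 (15.6%). From P15 to P21 it was 0 of 9 (0.162% of all genes; 2 members and 1499 genes at an unadjusted p under 0.05), with Gad1 at 0.72 ± 0.15 (adjusted p = 0.113), which DESeq2 did call (adjusted p = 0.0013). Dlx6, with 0 to 3 reads a library, was not tested, and 3 reads, the upper limit that a count of 0 allows, come to 0.527 to 0.949 rpm.

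Lhx6 and the Dlx1 and Dlx2 genes were lower at later ages without passing. Lhx6 was 16.9, 12.47, 10.9 and 13.2 rpm at P10, 6.86, 2.23, 9.84 and 2.21 at P15 and 4.99, 4.23, 7.95 and 3.89 at P21. Every later value was under every P10 value, and the difference from P10 to P21 was -1.35 ± 0.44 (edgeR, adjusted p = 0.0638; DESeq2, 0.022). Dlx2 was 20.2, 23.3, 17.97 and 22.4 rpm at P10, 20.8, 4.88, 19.9 and 9.17 at P15 and 18.4, 2.82, 22.6 and 3.03 at P21. Here the libraries numbered 1 kept their P10 level and those numbered 2 were low. At P15 and P21 the ratio of library 2 to library 1 was 0.134 to 0.462 for Dlx2, 0.139 to 0.546 for Dlx1, 0.225 to 0.848 for Lhx6 and 0.308 to 0.573 for Calb1, but 1.27 to 1.70 for Gad2 and 0.924 to 1.59 for Dlx5. The main transcripts of Dlx2, Lhx6 and Calb1 hold a 100-base stretch of 82%, 82% and 80% G and C, those of Gad2, Dlx5 and Pvalb 73%, 74% and 63%, and that of Gad1 80% at ratios of 0.672 to 1.06. Over the whole transcript the order was another, with 58.3%, 55.9% and 36.8% G and C in Dlx2, Lhx6 and Calb1 and 44.1%, 54.7% and 49.3% in Gad2, Dlx5 and Pvalb. Whether base composition had a part in the split was not tested. Without the 4 libraries numbered 2, 5 members were called from P10 to P21, Lhx6 (-1.06, adjusted p = 0.0048) and Calb2 (-0.74, 0.0003) besides Gad1, Gad2 and Pvalb (35.1% of all genes). Calb1 (206 to 268 rpm at P10, 97.5 to 282 at P21) and Calb2 (288 to 518, then 190 to 362) were the most read members over all hippocampus libraries. At P21, though, Gad1 averaged 194 rpm against 179 for Calb1.

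**Figure D5:**
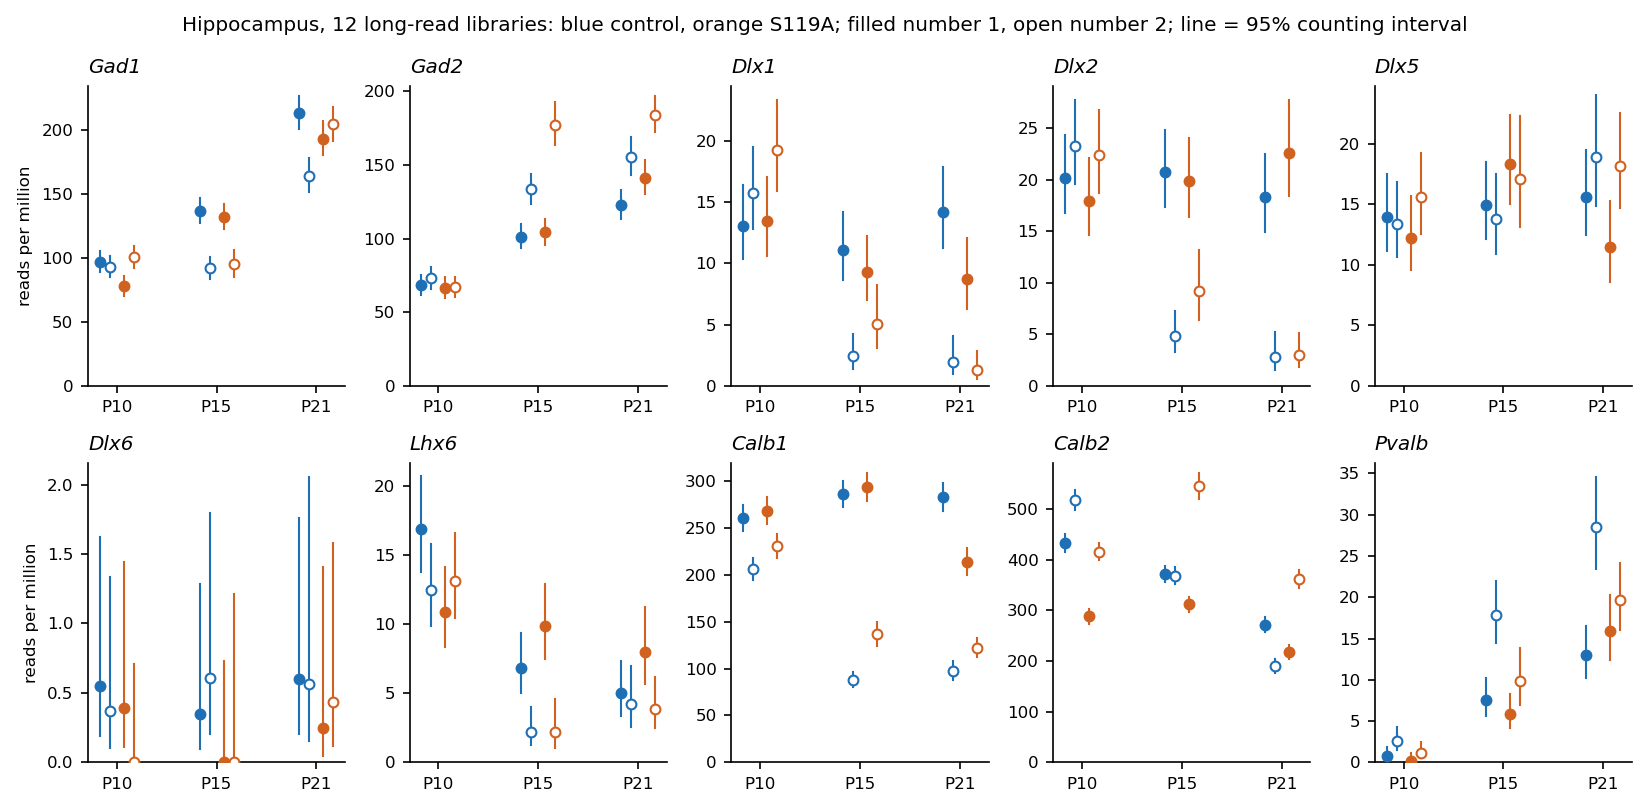
Reads-per-million level of each of the 10 genes in the 12 hippocampus libraries at P10, P15 and P21, with 95% counting intervals; blue is control and orange S119A, filled points are libraries numbered 1 and open points those numbered 2. Gad1, Gad2 and Pvalb climb with age in both genotypes, and for Dlx1, Dlx2 and Calb1 the open points at P15 and P21 lie far under the filled ones.

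The S119A genotype moved no member past the threshold. Over the 3 ages the 9 differences ran from -0.69 ± 0.41 (Pvalb) to 0.10 ± 0.36 (Lhx6), with 0 called by edgeR (0% of all genes; 0 members and 127 genes at an unadjusted p under 0.05) and 0 genes by DESeq2. Gad1 differed by -0.05 ± 0.12 and Gad2 by 0.09 ± 0.17. Pxn itself differed by -0.59 ± 0.29 (adjusted p = 1). The S119A allele keeps a paxillin transcript, so this level does not check the genotype. The test of whether the change from P10 to P21 differed by genotype called 0 members (0% of all genes; 0 members and 168 genes at an unadjusted p under 0.05). Of the subclass list 7 of 19 tested genes rose from P10 to P21 and 0 fell, against 15.6% of all genes called. The median was 0.85 against 0.00 over all genes, and Lamp5 (1.61), Crhbp (1.41), Vip (1.36) and Ackr3 (1.18) differed most. From P10 to P15, 5 of 19 rose, led by Htr3a (1.44), against 5.8% of all genes called. Of 12 tested genes of the transcription factor list only the antisense RNA Dlx1as rose to P21 (1.29 ± 0.27, edgeR, adjusted p = 0.0108). It went from 17.1 to 18.2 rpm at P10 to 35.8 to 49.7 at P21. Dlx1, on the other strand, was 13.03 to 19.3 and then 1.298 to 14.2 rpm, a difference that did not pass (-1.24, edgeR, adjusted p = 0.2345). The low Dlx1 values at P21 were those of the libraries numbered 2 (1.97 and 1.298 rpm), against 14.2 and 8.7 rpm in those numbered 1.

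Most members were read mainly as 1 transcript in the hippocampus. The main transcript took 94.0% of 7587 Gad1 reads, 99.3% of 6403 Gad2 reads, 99.5% of 20783 Calb2 reads and 93.8% of 874 Dlx5 reads, and Dlx2, Calb1 and Pvalb had reads on 1 transcript only. Lhx6 was the most divided, with 49.9% of its 485 reads on the leading transcript and 25.8% on the next of 7 with reads, and Dlx1 had 59.5% and 31.1% of its 588 reads on its first and next. These shares are over all 12 libraries and are descriptions. For both genes they split by library number. At P15 and P21 the leading Lhx6 transcript took 41 to 59.4% of reads in libraries numbered 1 and 6.67 to 18.2% of 7 to 18 reads in those numbered 2, and the leading Dlx1 transcript took 63.4 to 77.1% and 14.3 to 33.3% of 6 to 16 reads.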

How the data were processed

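RNA was measured in 48 short-read libraries and 12 long-read (Nanopore) libraries. Per the labels and the study's methods, the authors made the short-read values with STAR 2.7.10 and RSEM 1.3.3 on GRCm38.p6, and deposited transcripts-per-million (TPM) per gene symbol. Every library has the same sum, so sequencing depth is unknown and counting error cannot be given. For the hippocampus the authors mapped reads with minimap2 to mm10 and deposited whole read counts for 122459 RefSeq transcripts, without normalization. Of these transcripts 119252 matched RefSeq names (1.79% of reads lay on the others), and counts were summed per gene. Library totals were 3162777 to 5687908 reads. Wilson 95% intervals and floors of 3 reads cover counting error only.

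Cultures were tested with limma 3.58.1 (one fit of 13 groups, trend) on log2(TPM + 1) over genes whose mean TPM was 1 or more. Hippocampus counts were tested with edgeR 4.0.16 (quasi-likelihood, TMM, its filter on low counts, age and genotype as terms), with DESeq2 1.42.0 as an alternative. P-values were adjusted by Benjamini-Hochberg over all genes tested, with a threshold of 0.05. R 4.3.3 and Python 3.11.15 were used, and the tests recovered known changes in simulated data with independent libraries. The simulation held no libraries that stood apart and no shared deviation by culture or library number, so it does not bear on results that depend on these. The members and gene lists were chosen with earlier results of these data known. Named genes were the 10 members, Pxn, at most the 4 largest differences past the threshold in each other list, and the 3 genes most like each member; a few genes of the lists are not reported here and are not counted in them. The culture number in the labels was taken to pair libraries where every pair of at least 3 had correlated deviations from group means over 0.1, which held between SC and PXN and for BDNF at DIV3 and DIV5 (except between SC BDNF and PXN BDNF), and from DIV3 to DIV10 in SC BDNF. The median correlation was 0.297 over 164 pairs of the same culture number and -0.049 over 799 others. Other settings tried were the pseudocount, the filter, size factors, the culture number as a block, a term for the series of library numbers, the groups fitted, and leaving out libraries.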

Additional observations from a re-analysis of the deposited data

Results flagged for a closer look

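In 70 tests, of 10 genes in 7 culture groups of 4 to 6 libraries, 4 member levels had a lowest or highest library far from the others, about the 1 in 20 that chance gives. Dlx2 in DIV5 PXN was 125.8 TPM in culture 10 against 243.6 to 353.3 in the other cultures, and Dlx6 in the same library was 3.25 against 5.633 to 6.826 TPM. Calb1 in DIV3 PXN BDNF was 4.11 TPM in culture 10 against 8.588 to 9.573. Pvalb in DIV5 SC was 0.3131 TPM in culture 4 against 0.08265 to 0.1131. The BDNF difference of Calb1 changed between DIV3 and DIV5 in a test of that change, added after seeing the data, in the fit blocked on culture. The change was -2.93 in SC cultures (limma, adjusted p = 0.007826) and -2.26 in PXN cultures (adjusted p = 0.02018). Without the block it did not pass in either arm (adjusted p = 0.0694 and 0.136). What part the cultures or the treatment had in these values was not tested.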

How the results depend on the processing

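Counts of members called are given here wherever they moved by more than 1.5 times, and the cause was not tested. The share of all genes called moved with the setting too, as seen above where it is given beside a count. A count in this section is therefore not by itself a result about the members. A pseudocount of 0.1 gave 0 from E15 to DIV3 SC, 0 from DIV3 to DIV10 SC BDNF, 3 for siRNA at DIV10 and 0 for BDNF at DIV3 SC. Without the filter on low values the counts were 1 from DIV5 to DIV10 SC, 0 for siRNA at DIV10, 1 for siRNA at DIV10 BDNF and 0 for BDNF at DIV3 SC. Median ratio size factors gave 0 from DIV5 to DIV10 SC and 0 for siRNA at DIV10. Fitting only both groups compared gave 0 from DIV5 to DIV10 SC, 1, 0 and 4 from DIV3 to DIV10 in PXN, SC BDNF and PXN BDNF, 0 for siRNA at DIV10, and 0 and 2 for BDNF at DIV3 in SC and PXN. With the culture number as a replicate block the counts were 1 (Calb1, 1.47) from DIV3 to DIV5 SC, 2 and 3 (Lhx6 -1.40, Calb1 -1.61 and Calb2) from DIV3 to DIV10 in SC BDNF and PXN BDNF, 3 for siRNA at DIV5 BDNF, 4 for siRNA at DIV10, 1 for BDNF at DIV3 PXN, 1 for BDNF at DIV10 PXN, and 1 for the change of the BDNF difference in either arm. In the hippocampus the replicate block gave 5 from P10 to P21, though numbers did not pair libraries there. A term for the series of library numbers gave 0 from E15 to DIV3, 1 from DIV3 to DIV5, 2 and 3 from DIV3 to DIV10 in SC BDNF and PXN BDNF, 1 for siRNA at DIV5, 1 at DIV5 BDNF, 4 at DIV10 and 1 for BDNF at DIV3 PXN. DESeq2 gave 1 from P15 to P21.

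Leaving out cultures 10 and 11 gave 8 for siRNA at DIV10 and 1 for BDNF at DIV3 PXN and was not run for 3 comparisons because it emptied a DIV10 group. The fits within library numbers and without the DIV10 libraries that stood apart were added after seeing the data. Within library numbers 1 to 15, BDNF at DIV3 SC gave 0, with 1 library a group. Within 65 to 84 there were 4 for siRNA at DIV5 BDNF, 9 for siRNA at DIV10 and 1 for BDNF at DIV3 PXN. Without DIV10 PXN cultures 1 and 2 there were 2 from DIV3 to DIV10 PXN and 0 for siRNA at DIV10, and the values that changed sign were Gad1 0.23, Dlx1 0.55, Dlx5 0.01 and Ackr3 0.04 from DIV3 to DIV10 PXN and Dlx1 0.16 for siRNA at DIV10. With both DIV10 SC libraries of culture 3 left out as well the counts were 0 from DIV5 to DIV10 SC, 5, 2 and 4 from DIV3 to DIV10 in SC, PXN and SC BDNF, and 0 for siRNA at DIV10. A term marking library 2 of the P15 and P21 groups gave 4 from P10 to P15, 3 from P15 to P21 and 5 from P10 to P21, and leaving them out gave 1 from P15 to P21 and 5 from P10 to P21. Leaving out each library in turn, the counts ran from 0 to 1 from E15 to DIV3 and from DIV3 to DIV5, 0 to 2 from DIV5 to DIV10 SC, 1 to 2, 1 to 6, 0 to 3 and 0 to 1 from DIV3 to DIV10 in SC, PXN, SC BDNF and PXN BDNF, 0 to 7 for siRNA at DIV10, 0 to 1 for BDNF at DIV3 in either arm, 0 to 6 for BDNF at DIV10 PXN, 1 to 2 from P10 to P15, and 3 to 3 from P10 to P21. The 48 differences of members with an unadjusted p under 0.05 were refitted 643 times in all over these alternatives, of which 477 kept the direction and the side of the adjusted threshold, 83 passed it newly, 76 no longer passed it and 7 changed sign. Depth is unknown for the TPM values, and under 15 reads a library limit Pvalb at P10.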
